A study of Mus musculus with 37 samples.

Results

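The HIF1A pathway was followed here through 10 of the 60708 human gene IDs of a count table from mouse splenocytes: HIF1A itself and 9 targets or regulators of hypoxia signaling outside glycolysis, namely VEGFA, BNIP3, BNIP3L, NDRG1, DDIT4, EGLN1, EGLN3, P4HA1 and ADM. The IDs were chosen by gene name, but with earlier results of these data known. HIF1A is the oxygen-sensitive subunit of a transcription factor that is hydroxylated and degraded while oxygen is plentiful and accumulates when it is not. Much of its control is therefore at the protein level, which an RNA count does not show. In macrophages and lymphocytes the same factor also responds to inflammatory signals.

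The splenocytes came from wild-type FVB mice and spent 48 h either with cells of the mouse macrophage line RAW264.7 or in medium in which such cells had grown, and 37 libraries of 3′ mRNA ends were counted. Before the exposure the RAW culture had spent 72 h at 21% O2 (normoxia) or 1% O2 (hypoxia), with SPP1 (osteopontin) added or not. The splenocytes met the conditioned medium (called medium), unwashed RAW cells (cells), or RAW cells whose medium had first been washed off (washed), which with oxygen and SPP1 makes 12 groups. A further group was of naive splenocytes, and whether these were also kept in culture is not given in the sources used here. Brefeldin A, a blocker of protein secretion, was added at the end of the co-culture, and whether the naive splenocytes received it is not given either. The medium, normoxia, no-SPP1 group and the naive group had 2 libraries each and the other 11 groups had 3. It was the RAW culture that was hypoxic, and the sources used here give no separate oxygen level for the splenocytes. RAW cells were present in the cells and washed wells and not in the medium wells. RNA from RAW cells and a change in the splenocytes cannot be told apart in those libraries, and neither can fewer cells of a type and less RNA per cell.

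The mouse reads were aligned to a human genome, so a count holds those reads of a mouse transcript that were similar enough to the human sequence. A low count is therefore no measure of a low level, levels of different genes were not compared, and the gene behind an ID may be a paralog. Of the 22657 IDs with a count anywhere, 3581 (15.8%) averaged 10 counts or more. Library totals ran from 631574 to 1337314 counts with a median of 1063211, and 3 counts, taken as the floor of detection, equalled 2.01 to 4.97 CPM (counts scaled to a common library size, here with TMM factors) depending on the library. Totals averaged 1077640 in medium, 1154390 in cells and 1048920 in washed libraries. On principal components of log2 CPM, 4 libraries stood apart on component 2 (washed, normoxia, SPP1 replicates 1 and 2; washed, hypoxia, SPP1 replicate 1; cells, hypoxia, no SPP1 replicate 2), and 2 medium libraries (normoxia, no SPP1 replicate 3 and hypoxia, no SPP1 replicate 1) lay away from the other medium libraries on component 1. These 2 lay at -10.7 and -11.6, the other medium libraries at -57.5 to -41.5, and cells and washed libraries at -10.9 to 52. Component 1 thus largely separated medium from the other modes. Leaving out the 2 medium libraries nearest to those modes favors a difference from medium. Leaving out either set leaves a group with a lone library. This is replicate 2 in medium, normoxia, no SPP1, or replicate 3 in washed, normoxia, SPP1. In such fits the spread of the lone library is taken from the other groups. Splenocyte marker genes were not checked, since the name tables used here match 0 of the IDs and only the 10 members could be named.

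Capture was good enough for 3 of the 10 members. VEGFA (ENSG00000112715.25) averaged 146 counts per library (27 to 817), DDIT4 (ENSG00000168209.6) 35.5 (3 to 226) and BNIP3L (ENSG00000104765.16) 25.7 (3 to 60). The other 7 averaged under 10 counts and were poorly captured. P4HA1 (ENSG00000122884.13) averaged 9.43 counts (0 to 51) and HIF1A (ENSG00000100644.17) 8.78 (2 to 21). These 5 IDs passed the filter on low counts and were tested. The remaining 5 were not tested. EGLN3 averaged 2.27 counts (0 to 6), ADM 1.70 (0 to 9), NDRG1 0.757 (0 to 5) and BNIP3 0.216 (0 to 4). EGLN1, which encodes the main prolyl hydroxylase that marks HIF1A for degradation, had 0 counts in all 37 libraries, which allows up to 3 counts in any of them. No statement on EGLN1 is possible at this capture.

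**Figure D1:**
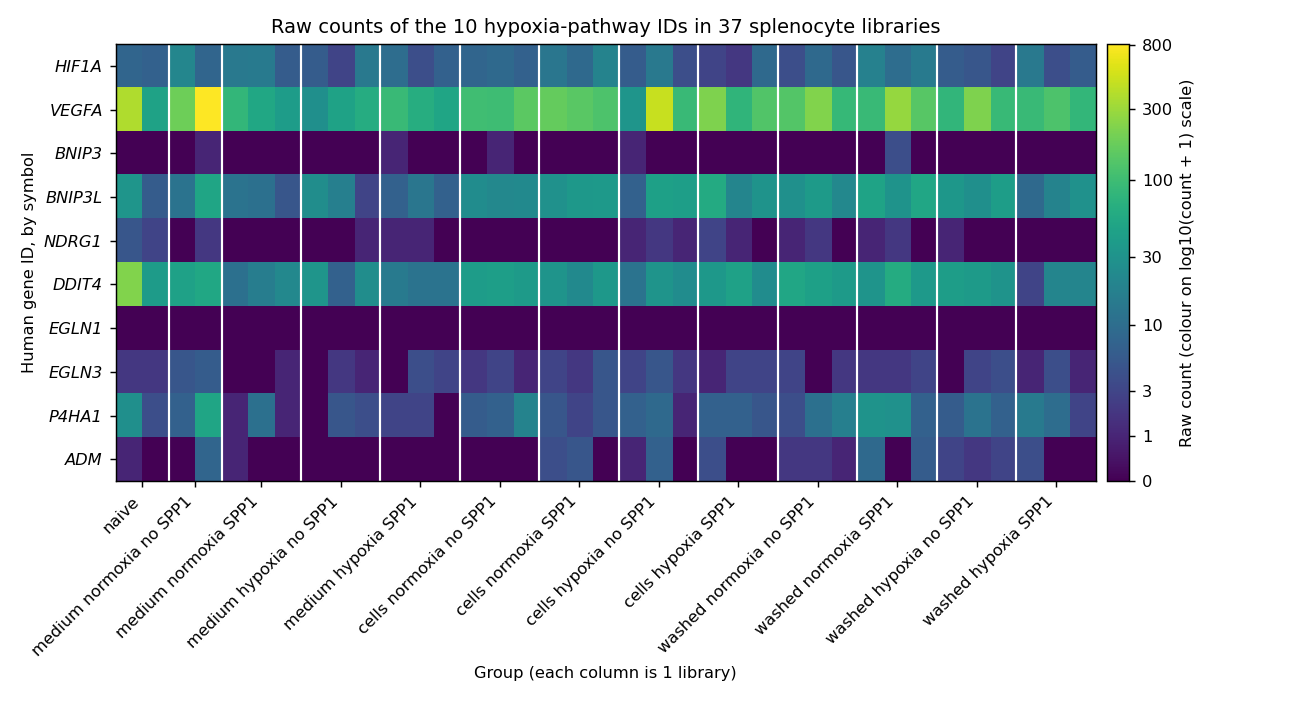
Raw counts of the 10 hypoxia-pathway IDs (rows) in each of the 37 libraries (columns, split by white lines into the 13 groups), colored on a log10(count + 1) scale. HIF1A, VEGFA, DDIT4 and BNIP3L have counts in every library, EGLN1 has 0 in every library, and BNIP3 has 0 in 32 libraries.

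The mouse promoters of 3 tested members are shown, to let the pathway be seen in sequence: HIF dimers bind the core letters ACGTG or GCGTG. The RefSeq windows (build GRCm38.p6, 250 bases before to 50 after a gene's start, printed 5′ to 3′ on the gene's strand) held 8 of the 10 members, with Bnip3l and Ndrg1 named only. Capitals mark the core letters on either strand, so CACGT and CACGC count as the same motifs read on the other strand, and an overlap of ACGTG with CACGT counts as 2 matches. The Ddit4 window lies at chr10:59951721-59952020 (minus strand), that of P4ha1 at chr10:59323046-59323345 (plus strand), and the upstream of the Vegfa windows at chr17:46032328-46032627 (minus strand).
Ddit4: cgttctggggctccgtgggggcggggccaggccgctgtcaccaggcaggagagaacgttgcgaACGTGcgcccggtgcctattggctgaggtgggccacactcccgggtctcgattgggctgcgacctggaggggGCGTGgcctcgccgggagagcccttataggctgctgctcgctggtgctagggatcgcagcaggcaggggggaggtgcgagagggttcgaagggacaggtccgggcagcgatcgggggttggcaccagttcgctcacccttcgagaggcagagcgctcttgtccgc
P4ha1: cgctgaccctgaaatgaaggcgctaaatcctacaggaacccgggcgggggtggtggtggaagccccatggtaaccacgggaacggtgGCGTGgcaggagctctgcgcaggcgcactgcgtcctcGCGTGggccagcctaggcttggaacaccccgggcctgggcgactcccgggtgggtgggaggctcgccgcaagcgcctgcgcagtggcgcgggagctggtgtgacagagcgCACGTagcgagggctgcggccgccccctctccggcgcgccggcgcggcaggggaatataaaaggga
Vegfa: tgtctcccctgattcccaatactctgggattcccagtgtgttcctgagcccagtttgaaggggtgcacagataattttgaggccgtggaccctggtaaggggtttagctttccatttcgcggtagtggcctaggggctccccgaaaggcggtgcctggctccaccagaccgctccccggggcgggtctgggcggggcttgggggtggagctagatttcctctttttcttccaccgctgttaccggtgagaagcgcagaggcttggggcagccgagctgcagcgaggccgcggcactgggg
The letters occurred 2 times for Ddit4, 3 times for P4ha1 and 0 times for the Vegfa window shown. The other Vegfa window, at chr17:46025114-46025413, held 2 matches. It lies downstream of the window shown, in the direction of the gene, and whether it is a promoter was not checked. Sequence outside the windows was not searched. Of the 9 member windows, 8 held at least 1 match, the downstream Vegfa window among them, and so did 43.8% of all 32851 windows in the table. A match in letters is a description and not a binding site.

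The first comparison asked whether splenocytes differed between RAW cultures kept in hypoxia and in normoxia. None of the 5 tested members passed an adjusted p of 0.05 in any mode. Among all 5193 tested IDs, edgeR's quasi-likelihood test with Benjamini-Hochberg adjustment called 0.077% in medium, 3.62% in cells and 0.0385% in washed. At an unadjusted p under 0.05 there were 2 members in medium, 0 in cells and 1 in washed, against 7.36%, 17.9% and 8.2% of all IDs, and DESeq2 also called 0 members in each mode, although in medium it gave no adjusted p for HIF1A and P4HA1 and so covered 3 of the 5 there. The 5 fitted log2 fold changes were all negative in medium (median -0.64, against 0.02 over all IDs) and in washed (median -0.60, against 0.02), while in cells 3 were positive and 2 negative (median 0.04, against 0.05). Leaving out medium, normoxia, no SPP1 replicate 3 moved BNIP3L to 0.34, VEGFA to -0.68 and P4HA1 to -0.94 in medium. That fit had replicate 2 alone in this group. HIF1A, VEGFA, DDIT4 and P4HA1 stayed negative in medium under all alternatives, and only BNIP3L turned. For each of the 5 members the hypoxia and normoxia libraries overlapped in every mode.

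HIF1A itself had few counts and a wide spread. In medium it ranged from 5.58 to 14.3 CPM (median 11.1) in the 5 normoxia libraries and from 2.72 to 12.2 CPM (median 5.46) in the 6 hypoxia libraries. In cells the medians were 8.31 CPM in normoxia (5.48 to 14.1) and 5.58 CPM in hypoxia (1.66 to 16.4). In washed they were 9.97 CPM (4.14 to 29.8) and 5.14 CPM (3.34 to 22.5). The hypoxia libraries thus had the lower median in each mode, but single libraries reached far above the rest. The log2 fold changes were -0.64 ± 0.47 (SE) in medium, -0.57 ± 0.47 in cells and -0.60 ± 0.48 in washed, with adjusted p of 0.827, 0.564 and 0.781. The 95% interval in cells ran from -1.52 to 0.38, so that neither a fall by more than a log2 unit nor a small rise was outside it.

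VEGFA encodes the secreted growth factor of blood vessels that the study's antiangiogenic treatment targets, and it was the best captured member. In the medium mode its normoxia libraries without SPP1 had 124 CPM (replicate 2) and 570 CPM (replicate 3), and those with SPP1 had 66.6, 51.5 and 40.8 CPM. The medium hypoxia libraries had 20.8, 42.6 and 53.9 CPM without SPP1 and 90.9, 60.1 and 44.9 CPM with SPP1. Hypoxia over normoxia gave a log2 fold change of -1.43 ± 0.47 (adjusted p = 0.398), and both normoxia libraries without SPP1 lay above every hypoxia library. Without the 2 medium libraries that stood apart, which include the one at 570 CPM, the value was -0.51. That fit had replicate 2 alone in normoxia without SPP1.

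In cells, VEGFA was tightly grouped in normoxia (92.6 to 128 CPM, median 109) and widely spread in hypoxia (38.5 to 546 CPM, median 98.6). The hypoxia libraries without SPP1 had 38.5, 546 and 90.7 CPM and those with SPP1 had 179, 66.2 and 107 CPM. The highest of them was replicate 2 without SPP1, one of the libraries that stood apart. This gave a log2 fold change of 0.56 ± 0.43 (adjusted p = 0.543), and it was -0.31 without the 4 libraries apart on component 2. In washed, VEGFA had medians of 147 CPM in normoxia (91.2 to 328) and 108 CPM in hypoxia (70.1 to 231), with a log2 fold change of -0.49 ± 0.44 (adjusted p = 0.800).

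BNIP3L, also known as NIX, is a receptor of the outer mitochondrial membrane for mitophagy. In medium its medians were 9.51 CPM in normoxia (5.10 to 34.9) and 9.39 CPM in hypoxia (2.61 to 20.0). In cells they were 23.1 CPM (18.0 to 29.4) and 33.0 CPM (8.41 to 51.5), with 3 hypoxia libraries above and 2 below the whole normoxia range. In washed they were 35.0 CPM (22.8 to 79.5) and 26.3 CPM (14.5 to 45.7). The spread was larger than the difference in each mode. The log2 fold changes were -0.38 ± 0.45, 0.42 ± 0.38 and -0.59 ± 0.39 in medium, cells and washed, with adjusted p of 0.920, 0.611 and 0.720.

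DDIT4, also known as REDD1, restrains mTORC1 under stress and answers to glucocorticoids as well as to low oxygen. In washed, the normoxia libraries had 33.6 to 70.5 CPM (median 46.1). The washed hypoxia libraries without SPP1 had 39.5, 39.6 and 33.4 CPM, and those with SPP1 had 4.83, 18.4 and 16.9 CPM. The latter 3 and 1 of the former lay below the whole normoxia range, and the lowest was replicate 1, one of the libraries that stood apart. Its log2 fold change was -1.06 ± 0.33 (adjusted p = 0.414), the lowest of the 5 members in this mode. It was -0.59 without the 4 libraries apart on component 2, a fit with replicate 3 alone in washed, normoxia, SPP1. In medium the medians were 22.5 CPM (8.72 to 37.0) and 12.8 CPM (6.34 to 24.7), a log2 fold change of -0.61 ± 0.36 (adjusted p = 0.757). In cells they were 27.8 CPM (19.3 to 42.0) and 26.3 CPM (14.4 to 37.3), a log2 fold change of -0.12 ± 0.32 (adjusted p = 0.887).

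P4HA1 encodes a subunit of the prolyl hydroxylase that matures collagen and was poorly captured. In medium the normoxia libraries had 4.68 and 35.6 CPM without SPP1 and 0.792, 10.5 and 1.02 CPM with SPP1, whereas the 6 hypoxia libraries had 0 to 4.53 CPM (median 2.84). Of these 11 libraries, 6 had 3 counts or fewer. Its log2 fold change was -1.98 ± 0.76 (adjusted p = 0.488), and -0.62 without the 2 medium libraries apart. In cells the medians were 4.79 CPM (2.52 to 14.9) and 5.69 CPM (0.986 to 10.5), with a log2 fold change of 0.04 ± 0.61 (adjusted p = 0.982). In washed they were 13.9 CPM (4.14 to 49.7) and 8.49 CPM (2.53 to 24.1), with a log2 fold change of -0.84 ± 0.60 (adjusted p = 0.749), which was -0.22 without the 4 libraries apart on component 2.

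**Figure D2:**
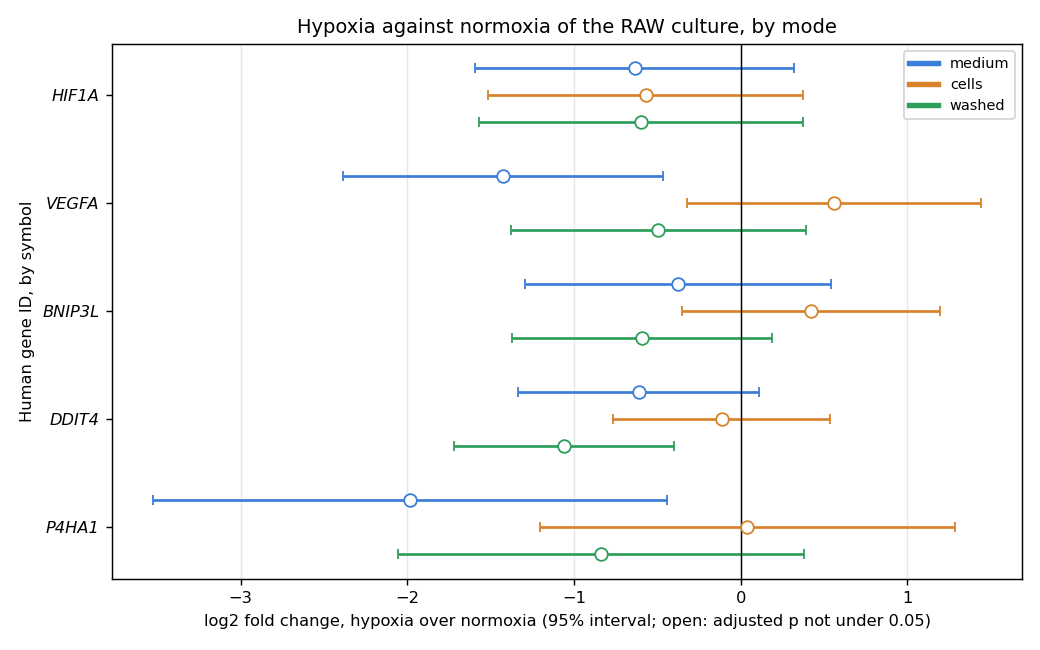
Log2 fold change of hypoxia over normoxia of the RAW culture (horizontal axis) for the 5 tested IDs in each mode, with 95% intervals from the quasi-likelihood fit. All points are open, since no adjusted p was under 0.05. The intervals of VEGFA and P4HA1 in medium and of DDIT4 in washed lie below 0 before adjustment.

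Whether the oxygen effect differed between modes was tested as an interaction. No member passed, against 0.481% of all IDs for cells minus medium and 0.173% for cells minus washed. At an unadjusted p under 0.05 there was 1 member in each, VEGFA and DDIT4 respectively, against 8.4% and 7.05% of all IDs. For VEGFA the effect in cells exceeded that in medium by 1.99 ± 0.64 log2 units (adjusted p = 0.196) and that in washed by 1.05 ± 0.62 (adjusted p = 0.768). For BNIP3L the corresponding differences were 0.80 ± 0.59 and 1.02 ± 0.54, for DDIT4 0.50 ± 0.48 and 0.94 ± 0.46, and for P4HA1 2.02 ± 1.01 and 0.88 ± 0.90. These adjusted p ranged from 0.605 to 0.923. Both interactions use the same cells libraries, and most of these values shrank without the libraries that stood apart. Without the 2 medium libraries apart, the difference of cells minus medium was 1.07 for VEGFA, 0.34 for BNIP3L and 0.66 for P4HA1. Without the 4 libraries apart on component 2, VEGFA was at 1.10 and DDIT4 at 0.32 for cells minus medium, and for cells minus washed VEGFA was at -0.0128, BNIP3L at 0.68, DDIT4 at 0.32 and P4HA1 at 0.00871.

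The untested members were read as counts only. NDRG1, a stress-response gene used widely as a hypoxia marker, had 0 counts in all 6 cells normoxia libraries, which allows up to 3 counts in each. In cells hypoxia it had 8 counts in all, spread over 5 of 6 libraries, and no more than 3 in any of them. In washed the order was the other way, with 6 counts over 4 normoxia libraries and 1 count in the hypoxia libraries. In medium there were 2 counts in normoxia and 3 in hypoxia. No library but naive replicate 1, with 5 counts, exceeded the floor.

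ADM, which encodes the vasodilator peptide adrenomedullin, had 0 counts in the 6 medium hypoxia libraries and 9 counts over the 5 medium normoxia libraries, 8 of them in replicate 3 without SPP1. In cells it had 9 counts in normoxia and 12 in hypoxia, and in washed 20 and 12. EGLN3, a prolyl hydroxylase that is itself induced by HIF, had 12 and 10 counts in medium, 16 and 17 in cells and 12 and 13 in washed, for normoxia and hypoxia. BNIP3, the paralog of BNIP3L in mitophagy, had 8 counts in the whole series, 4 of them in washed, normoxia, SPP1 replicate 2. No difference by oxygen was detectable for these IDs at this depth.

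The next comparison set the modes of exposure side by side, averaged over oxygen and SPP1. BNIP3L and DDIT4 were higher in cells than in medium, and VEGFA, BNIP3L, DDIT4 and P4HA1 were higher in washed than in medium. This is 2 of 5 and 4 of 5 tested members, where 23.4% and 28.6% of all IDs were called higher and 48.7% and 58.7% were called in either direction. The median log2 fold change of the 5 was 0.61 in cells over medium and 0.86 in washed over medium, against -0.02 and -0.03 over all IDs. Both comparisons share the medium libraries, and both are between wells with and without RAW cells.

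BNIP3L had the lowest adjusted p of the members in both comparisons. It had 2.61 to 34.9 CPM (median 9.51) in the 11 medium libraries, 8.41 to 51.5 CPM (median 24.2) in the 12 cells libraries and 14.5 to 79.5 CPM (median 30.9) in the 12 washed libraries. In cells 11 of 12 libraries and in washed 12 of 12 lay above the medium median. With the 2 medium libraries that stood apart left out, the highest medium library had 15.4 CPM, and 11 of 12 libraries of each other mode exceeded it. These 2 were the medium libraries nearest to the other modes on component 1, so leaving them out favors this gap. On the log2 scale the change was 1.21 ± 0.30 in cells (2.31-fold, adjusted p = 0.00102) and 1.43 ± 0.30 in washed (2.70-fold, adjusted p = 0.000108). Both calls were made in all 30 alternative analyses. In each comparison with medium, 23 of these 30 left out 1 single library.

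DDIT4 had 6.34 to 37.0 CPM (median 15.3) in medium, 14.4 to 42.0 CPM (median 26.9) in cells and 4.83 to 70.5 CPM (median 39.4) in washed. In cells and in washed 11 of 12 libraries lay above the medium median. On the log2 scale the change was 0.86 ± 0.24 in washed (1.81-fold, adjusted p = 0.00278), called in all 30 alternatives. In cells it was 0.61 ± 0.24 (1.52-fold, adjusted p = 0.0358), a call made in 18 of 30 alternatives.

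VEGFA had a median of 53.9 CPM in medium (20.8 to 570), 104 CPM in cells (38.5 to 546) and 134 CPM in washed (70.1 to 328). All 12 washed libraries lay above the medium median and 8 of the 11 medium libraries lay below every washed library. In washed its log2 fold change was 0.82 ± 0.33 (1.77-fold, adjusted p = 0.0296), a call made in 21 of 30 alternatives. With the replicate number as a block the adjusted p was 0.0549, with DESeq2 it was 0.0584, and without the 4 libraries apart on component 2 the log2 fold change was 0.57 (adjusted p = 0.0934). In cells the value was 0.69 ± 0.32 (adjusted p = 0.0747). It was 0.23 without the 4 libraries apart on component 2 and 0.97 without the 2 medium libraries apart. The latter setting favors a difference from medium, as stated above.

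P4HA1 had a median of 2.90 CPM in medium (0 to 35.6), 5.65 CPM in cells (0.986 to 14.9) and 9.71 CPM in washed (2.53 to 49.7). The log2 fold change in washed was 1.53 ± 0.48 (2.88-fold, adjusted p = 0.00700), but the 2 highest washed libraries were among those that stood apart, and without these 4 libraries it was 0.74 (adjusted p = 0.23). In cells it was 0.34 ± 0.50 (adjusted p = 0.601). HIF1A did not pass in either comparison, with medians of 6.29 CPM in medium, 7.46 CPM in cells and 5.50 CPM in washed.

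Between washed and cells none of the 5 members passed, where 7.24% of all IDs did. At an unadjusted p under 0.05 there was 1 member, P4HA1, against 23.9% of all IDs, and DESeq2 called 0. The difference was largest for P4HA1 (1.19 ± 0.45, adjusted p = 0.0929) and was 0.25 ± 0.23 for DDIT4, 0.22 ± 0.27 for BNIP3L and 0.13 ± 0.31 for VEGFA. The 95% interval for BNIP3L ran from -0.33 to 0.77 log2 units, so that a moderate difference was within it.

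**Figure D3:**
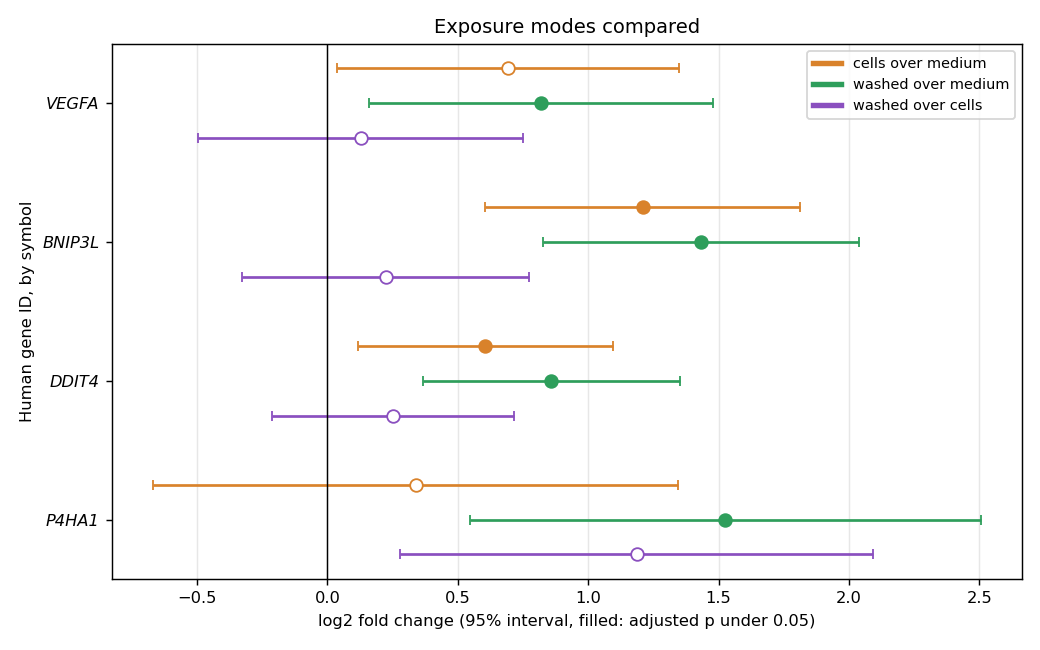
Log2 fold changes between exposure modes (horizontal axis) for 4 IDs, with 95% intervals and filled points where the adjusted p was under 0.05. BNIP3L and DDIT4 are filled for cells over medium, all 4 are filled for washed over medium, and none is filled for washed over cells.

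Over all 13 groups, 4 of the 5 tested members varied (VEGFA, BNIP3L, DDIT4 and P4HA1), as did 53.6% of all IDs, with adjusted p of 0.00576, 0.00499, 3.52e-06 and 0.0115. HIF1A did not pass (adjusted p = 0.237). Its group means ran from 3.81 ± 3.11 CPM (SD) in cells, hypoxia, SPP1 to 18.3 ± 10.0 CPM in washed, normoxia, SPP1, and no neighboring pair of groups in that order was separated by more than the larger of their SDs. For VEGFA the means ran from 39.1 ± 16.8 CPM in medium, hypoxia, no SPP1 to 347 ± 315 CPM in medium, normoxia, no SPP1. The 3 lowest VEGFA groups were the 3 other medium groups, and the step from the highest of them (65.3 ± 23.5 CPM, medium, hypoxia, SPP1) to the next group (105 ± 10.4 CPM, cells, normoxia, no SPP1) was the only one in the order that exceeded both SDs. For BNIP3L the lowest means were again in the 3 medium groups other than normoxia without SPP1 (8.36 ± 3.18 to 12.7 ± 9.03 CPM), and the highest was 53.8 ± 23.1 CPM in washed, normoxia, SPP1.

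**Figure D4:**
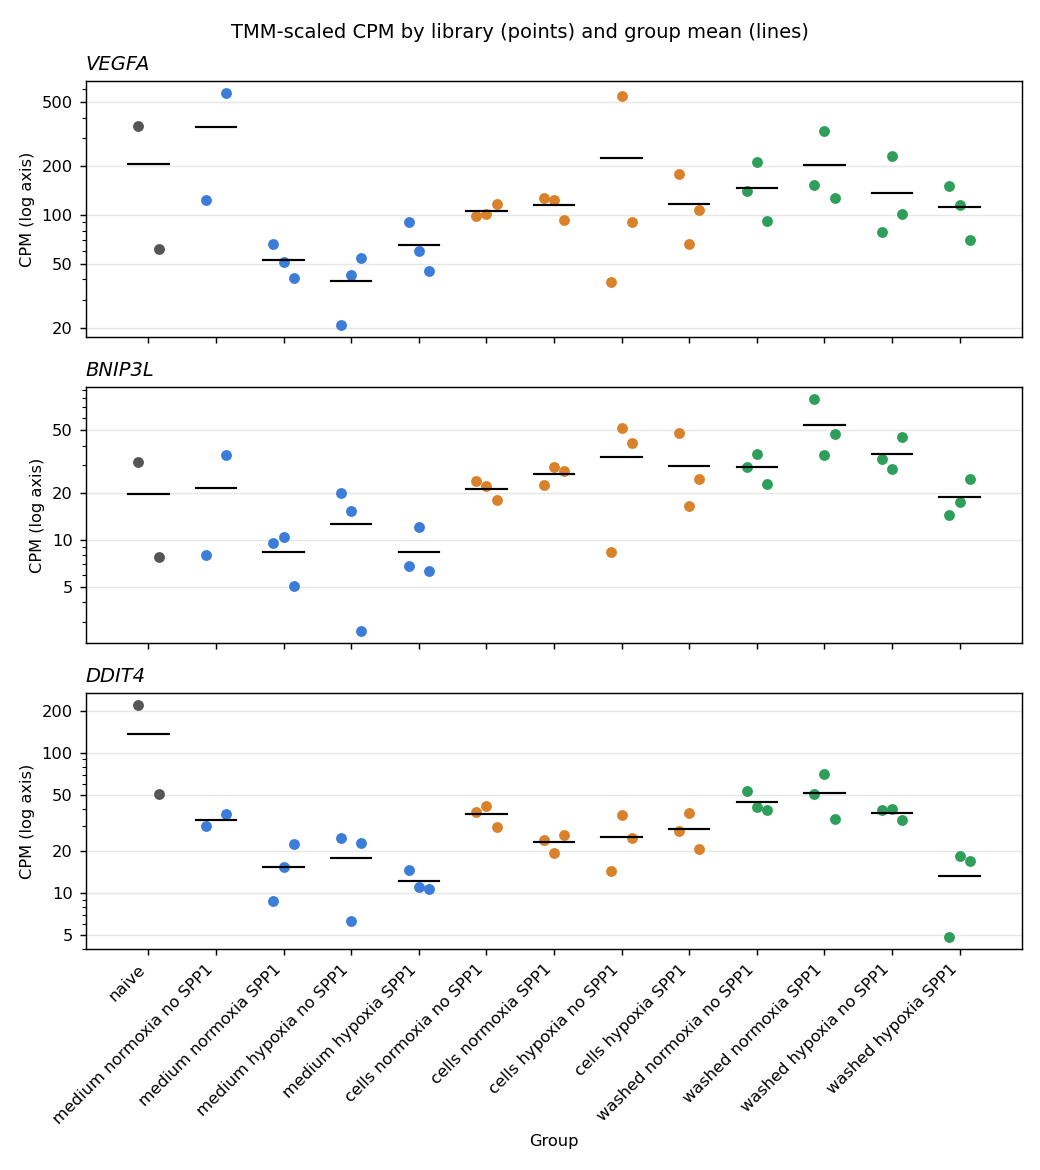
TMM-scaled CPM of VEGFA, BNIP3L and DDIT4 (vertical log axes) in each library (points) of the 13 groups, with the group mean as a line; gray, blue, orange and green mark naive, medium, cells and washed. Single high libraries set the VEGFA means of medium, normoxia, no SPP1 (570 CPM) and cells, hypoxia, no SPP1 (546 CPM), and naive replicate 1 lies above all other libraries for DDIT4 (221 CPM).

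Against naive splenocytes, DDIT4 was the member called, and it was lower in all 3 modes. The naive libraries had 221 CPM (replicate 1) and 50.8 CPM (replicate 2). The log2 fold change was -2.89 ± 0.35 in medium (adjusted p = 1.06e-07), -2.29 ± 0.34 in cells (4.48e-06) and -2.03 ± 0.35 in washed (2.45e-05), where 15.3%, 13.4% and 17.1% of all IDs were called lower. Without naive replicate 1 these became -1.39 (adjusted p = 0.0343), -0.78 (0.271) and -0.52 (0.481), in fits where the spread of the lone naive library is taken from the other groups. The calls in cells and washed were thus not made without replicate 1. The remaining naive library at 50.8 CPM lay above all 11 medium libraries, whose highest had 37.0 CPM. The 3 comparisons share the naive libraries, and in them exposure cannot be told apart from time in culture.

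VEGFA had 354 and 61.2 CPM and P4HA1 26.4 and 5.21 CPM in the naive libraries, in both cases with replicate 1 the higher. The log2 fold change of VEGFA was -1.34 ± 0.53 in medium (adjusted p just above 0.05), -0.64 ± 0.54 in cells (0.404) and -0.52 ± 0.55 in washed (0.498). Its sign turned in all 3 modes without naive replicate 1, to 0.52, 1.22 and 1.35. P4HA1 had -1.83 ± 0.76 in medium (adjusted p = 0.0600), -1.49 ± 0.74 in cells (0.132) and -0.30 ± 0.75 in washed (0.786). Without naive replicate 1 these were -0.13, 0.21 and 1.41. BNIP3L had 31.2 and 7.81 CPM and HIF1A 7.81 and 9.12 CPM in the naive libraries, and neither passed in any mode. NDRG1 had 5 and 3 counts in the naive libraries and 20 counts over the 35 exposed ones.

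Adding SPP1 to the RAW culture gave 0 called members in each mode, where 0.25%, 0% and 0.0193% of all IDs were called in medium, cells and washed. DESeq2 also called 0, with no adjusted p for HIF1A and P4HA1 in medium, and at an unadjusted p under 0.05 there were 3, 0 and 1 members, against 9.2%, 1.68% and 10.1% of all IDs. In medium, VEGFA had a median of 53.9 CPM without SPP1 (20.8 to 570) and 55.8 CPM with it (40.8 to 90.9), and a log2 fold change of -0.98 ± 0.47 (adjusted p = 0.525). The medians hardly differed while the fitted means did, with the library at 570 CPM among those without SPP1. BNIP3L (-0.97 ± 0.45, adjusted p = 0.522) and DDIT4 (-0.85 ± 0.36, adjusted p = 0.461) were in the same direction in this mode. Without the 2 medium libraries apart, BNIP3L was at 0.01. In washed, HIF1A had 3.34 to 8.37 CPM (median 5.20) without SPP1 and 3.67 to 29.8 CPM (median 12.6) with it. Its log2 fold change was 1.27 ± 0.48 (adjusted p = 0.358), and the 2 highest libraries, at 29.8 and 22.5 CPM, were among those that stood apart.

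VEGFA, BNIP3L, DDIT4 and P4HA1, the last of them poorly captured, shared part of their variation over the 37 libraries. Pearson's r of log2 CPM was 0.68 between VEGFA and P4HA1, 0.61 between VEGFA and BNIP3L and 0.52 between VEGFA and DDIT4, and 0.44 to 0.47 among BNIP3L, DDIT4 and P4HA1. HIF1A, also poorly captured with a mean of 8.78 counts, had r between -0.01 and 0.33 with the other 4. Counting error at such counts can lower r, so these values do not show that HIF1A varied apart from them. Over all tested IDs the median r with VEGFA was -0.03. These points share modes, depth and a few high libraries, and are given as a description. The ID most like HIF1A over the 37 libraries was ENSG00000155313.16 (r = 0.69), and the one most like VEGFA was ENSG00000176095.12 (r = 0.76). Their names are not in the tables used here.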

How the data were processed

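QuantSeq 3′ mRNA libraries (single reads, stranded) of 37 mouse splenocyte cultures were analysed. Per the series text, the authors trimmed reads with bbduk, used STAR 2.7.10b for alignment to the human genome GRCh38 and featureCounts (Rsubread 2.0.3) for counting by gene, and the deposited values are raw counts with human Ensembl IDs. The annotation release, the use of molecular identifiers and the handling of multiply aligned reads are not given in the sources used here, so a count may include PCR copies. Member symbols follow from the human IDs. A planned list of other hypoxia genes and the cell type markers could not be used, since 0 IDs occur in the mouse name tables. The 10 members, the comparisons and the alternatives were chosen with earlier results of these data known.

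In R 4.3.3, IDs were kept by filterByExpr (minimum count 10), which left 5193 IDs. TMM scaling was used, and edgeR 4.0.16 fitted all 37 libraries at once by quasi-likelihood with 1 mean per group. Contrasts weighted groups equally and p-values were adjusted by Benjamini-Hochberg over all tested IDs (threshold 0.05). Standard errors and 95% intervals came from the F statistic. Members with a mean under 10 counts are called poorly captured, and all 10 members are named in the text. The scripts were tested on simulated data. Alternatives were RLE scaling, no filter, a replicate block, DESeq2 1.42.0, a fit of the compared groups only, and leaving out single libraries or those that stood apart. Intervals and floors cover counting error or the spread between these libraries. The series text mentions independent repeats, but the labels do not tie libraries to separate mice, so the spread may be partly technical.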

Additional observations from a re-analysis of the deposited data

Results flagged for a closer look

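Each of 5 tested IDs was screened for a single extreme library in the 6 arms (mode by oxygen) of 5 or 6 libraries with Dixon's criterion, 30 arms in all, of which 7 had an extreme library. Chance flags about 1 in 20 such groups where the values are normally distributed. The arms held CPM without logs, pooled both SPP1 states and shared libraries between IDs, so that rate need not hold here. Of the 7 flags, 3 were the same library, medium, normoxia, no SPP1 replicate 3. There VEGFA had 570 CPM against 124 CPM in the next highest of the arm, BNIP3L 34.9 against 10.5 CPM and P4HA1 35.6 against 10.5 CPM. In cells, hypoxia, no SPP1 replicate 2, VEGFA had 546 CPM against 179 CPM. In washed, HIF1A had 29.8 CPM against 13.6 CPM in normoxia, SPP1 replicate 1, and 22.5 CPM against 5.78 CPM in hypoxia, SPP1 replicate 1. These 4 libraries all stood apart on the principal components, and the part of this in the values was not tested. In cells, normoxia, no SPP1 replicate 3, which did not stand apart, P4HA1 had 14.9 CPM against 7.00 CPM.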

How the results depend on the processing

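With 3 counts worth up to 4.97 CPM, small changes of HIF1A and P4HA1 were beyond reach, and 5 members could not be tested. The number of members called did not change for oxygen in cells and washed, or for SPP1 in any mode. Without the filter on low counts (22657 IDs), VEGFA was called for oxygen in medium and for cells minus medium (1 member each, both VEGFA; adjusted p = 0.000273 and 2.89e-05), P4HA1 in washed over cells (1), 4 members in medium against naive (VEGFA, NDRG1, DDIT4 and P4HA1) and 2 in cells against naive (NDRG1 and DDIT4). It also gave 5 in washed over medium, ADM being the fifth, and 2 in cells over medium, where VEGFA was called (adjusted p = 0.00199) and DDIT4 was not (0.0922). RLE scaling gave 1 member in cells over medium and 2 in medium against naive. Without the 4 libraries apart on component 2 there was 1 in cells over medium, 2 in washed over medium (BNIP3L and DDIT4), 3 in medium against naive and 2 in cells against naive. Without the 2 medium libraries apart on component 1 there were 3 in medium against naive, 3 in cells over medium with VEGFA added, and 5 in washed over medium with ADM added. A fit of the compared groups only gave 2 in medium and 2 in cells against naive. The cause of these shifts was not tested. Both fits without the libraries that stood apart left a group with a lone library. The fit without the 2 medium libraries also favors differences from medium, since component 1 largely separated medium from the other modes.

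Leaving out 1 library at a time gave 1 to 3 members in cells over medium, 3 to 5 in washed over medium, 0 to 1 in washed over cells, 1 to 3 in medium against naive, and 0 to 1 in cells and in washed against naive, with 0 without naive replicate 1. Among the log2 fold changes given in the report, the signs that turned were as follows. Without the 2 medium libraries apart, BNIP3L was 0.0939 for oxygen and 0.00989 for SPP1 in medium. Without the 4 libraries apart, VEGFA was -0.31 and P4HA1 -0.21 for oxygen in cells, and VEGFA -0.0128 for cells minus washed. Over single libraries left out, the oxygen effect of BNIP3L in medium ran from -0.71 to 0.34 (highest without normoxia, no SPP1 replicate 3), and in cells that of DDIT4 from -0.29 to 0.0188, of P4HA1 from -0.22 to 0.31 and of VEGFA from -0.33 (without hypoxia, no SPP1 replicate 2) to 0.81. VEGFA ran from -0.0232 to 0.60 in washed over cells. Against naive, VEGFA ran from -2.11 to 0.52 in medium, from -1.41 to 1.22 in cells and from -1.26 to 1.35 in washed, each highest without naive replicate 1, as did P4HA1 from -2.19 to 0.212 in cells and from -0.98 to 1.41 in washed. Of the fold changes not given one by one, signs turned under at least 1 alternative in 9 of 10 comparisons for HIF1A, 4 of 5 for BNIP3L, 2 of 2 for VEGFA, 1 of 3 for P4HA1 and 0 of 2 for DDIT4.

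The deviations of same-numbered libraries of different groups had a median correlation of 0.00 over 187 pairs (-0.48 to 0.53, of which 152 were 0.1 or less). This gave no sign of pairing by number but cannot exclude it, and the labels do not say what the numbers stand for. With the replicate block, the number of members called was within 1.5 times that without it in each comparison, VEGFA lost its call in washed over medium (adjusted p = 0.0549), and the oxygen effect of P4HA1 in cells turned to -0.0139.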
